A study of Homo sapiens with 8 samples.

Results

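The canonical histone genes were taken as all gene symbols that start with HIST1H, HIST2H, HIST3H or HIST4H, the hg19-era names of the replication-linked histone loci. The rule found 73 of the 27317 symbols in the deposited tables: 6 linker histone H1 genes, 18 H2A, 20 H2B, 14 H3 and 15 H4 genes. Classes follow the names alone. HIST1H2APS1, HIST2H2BA and HIST2H2BC among them are annotated as pseudogenes in GENCODE v29. The cells were of the human embryonic stem cell (ESC) line MEL1, grown in E8 medium, and were sequenced as 8 RNA libraries in 4 groups of 2. TCDD D2 and DMSO D2 cells had spent 2 days in a cardiac differentiation medium that held 5 µM of the GSK3 inhibitor CHIR99021, after exposure at the ESC stage to 2 nM TCDD in DMSO or to DMSO alone. TCDD D1 and DMSO D1 cells had the same exposures and were taken just before differentiation. TCDD is a dioxin that activates the aryl hydrocarbon receptor, and DMSO, its solvent, was present in all 4 groups at below 0.1%. All libraries came from the same line, the labels' source name is ESC at both days, and the sources used here state neither how long the exposure lasted nor whether replicates were separate cultures. All p-values thus describe the spread between these libraries, which may be technical.

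Canonical histones are the proteins that package newly copied DNA: H2A, H2B, H3 and H4 form the nucleosome core and H1 binds the linker DNA between nucleosomes. Their genes lie in clusters, are transcribed mainly in S phase, and most of their mRNAs end in a short stem-loop, bound by the stem-loop binding protein SLBP, in place of a poly(A) tail. Some of these genes also give longer transcripts that run past the stem-loop to a poly(A) signal, and such tailed histone mRNAs are known from cells that leave the cell cycle or differentiate. A protocol that picks RNA by its tail would leave most histone mRNA behind, and whether these libraries were made that way is not given in the sources used here.

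Sequences that set apart both kinds of 3′ end are shown first, since most histone mRNAs lack a tail. In the GENCODE v29 annotation (GRCh38), all 73 genes were found, with 104 transcripts. In 31 genes, the annotated sequence after the stop codon held the histone 3′ stem-loop motif, a run of 16 bases that starts with GG and ends with CC, which was searched on the transcribed strand and overlaps no other motif searched. The motif is in capitals in the following 4 genes, each among the 8 most counted histone genes. They lie at chr6:26124664-26124689 on the plus strand (HIST1H2AC), chr1:149886183-149886208 on the minus strand (HIST2H2BE), chr1:228457364-228457389 on the minus strand (HIST3H2A) and chr6:27139649-27139674 on the plus strand (HIST1H4I), all in 3′ UTRs.
HIST1H2AC: ccaaaGGCTCTTTTCAGAGCCcccct
HIST2H2BE: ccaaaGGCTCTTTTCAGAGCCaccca
HIST3H2A: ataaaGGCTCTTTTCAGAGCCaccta
HIST1H4I: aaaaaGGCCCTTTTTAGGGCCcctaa
The same 16 bases formed the stem-loop in HIST1H2AC, HIST2H2BE and HIST3H2A.

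A poly(A) signal, AATAAA or ATTAAA on the transcribed strand, lay in the last 50 bases of an annotated transcript in 24 of the 73 genes. For the 3 H2A and H2B genes above it was found at chr6:26139078-26139103 (HIST1H2AC), chr1:149884467-149884492 (HIST2H2BE) and chr1:228456987-228457012 (HIST3H2A), and it is in capitals here.
HIST1H2AC: ggcatgaggtAATAAAaggtaatgca
HIST2H2BE: tattgttattAATAAAgttaccaatt
HIST3H2A: tttatctgatATTAAAagtatttatg
In these 3 genes the longest annotated transcript ran past the stem-loop, by 1128 spliced bases in HIST1H2AC, 1729 bases in HIST2H2BE and 390 bases in HIST3H2A. HIST1H4I had a stem-loop and no such signal, and its annotated transcript also ran past the stem-loop, by 212 bases. The annotated transcripts of HIST1H1C and HIST1H2BK, the other genes counted most, end at the stop codon, so neither element could be looked for there. The 24 genes with an annotated signal took 48.0% of the histone counts and the 49 without one 52.0%. Of the 49, 34 have no annotated base after the stop codon, HIST1H1C and HIST1H2BK among them. The split thus does not separate tailed from tailless mRNA.

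Histone reads were few, and most of them came from a handful of genes. The 8 libraries held 34873055 to 43770420 gene counts, of which 813 to 1207 fell on canonical histone genes. Over all libraries, HIST1H2BK took 18.9% of the 7956 histone counts, HIST1H1C 13.8%, HIST3H2A 9.78%, HIST2H2BE 9.63% and HIST1H2AC 7.42%, which adds up to 59.6% for these 5 genes. Each of the 5 belongs to a list of 9 histone genes for which tailed transcripts are described (the others are HIST1H2BC, HIST1H2BD, HIST1H2BJ and HIST1H4H), and the 9 together took 67.3% of the histone counts. The list was chosen with earlier results of these data known, so its share is a description and not independent support. It differs from the genes with an annotated poly(A) signal: HIST1H2AG, HIST1H2BH, HIST1H3G and HIST1H3H have such a signal and are outside the list. Counts were not corrected for gene length, so these shares describe reads and not molecules per gene.

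By class, H2B genes took 45.2% of the histone counts, H2A genes 26.2%, H1 genes 16.9%, H4 genes 5.95% and H3 genes 5.82%. Of the 73 genes, 62 had a count somewhere, 40 had a count in all 8 libraries and 18 averaged 10 or more counts per library. The other 11 had no count in any library, which allows up to 3 counts, or 0.0685 to 0.0860 counts per 1000000 of the library total, in each. They are HIST1H2AD, HIST1H2APS1, HIST1H4G, HIST1H4L, HIST2H2AA3, HIST2H2AA4, HIST2H2BA, HIST2H3A, HIST2H3C, HIST2H4A and HIST2H4B. Of these, HIST1H2APS1 and HIST2H2BA are annotated as pseudogenes. In 7 of these 11, at least 50% of the 50-base windows of the annotated transcripts also occur in another histone gene, and how reads that match several genes were counted is not given in the sources used here. That question also touches HIST1H2AM, where 86.3% of windows are shared with the overlapping HIST1H3J, so its counts are uncertain. HIST2H2AC shares 30.5% of its windows with other histone genes and HIST1H2BK 22.6%, so their counts may be touched as well.

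**Figure D1:**
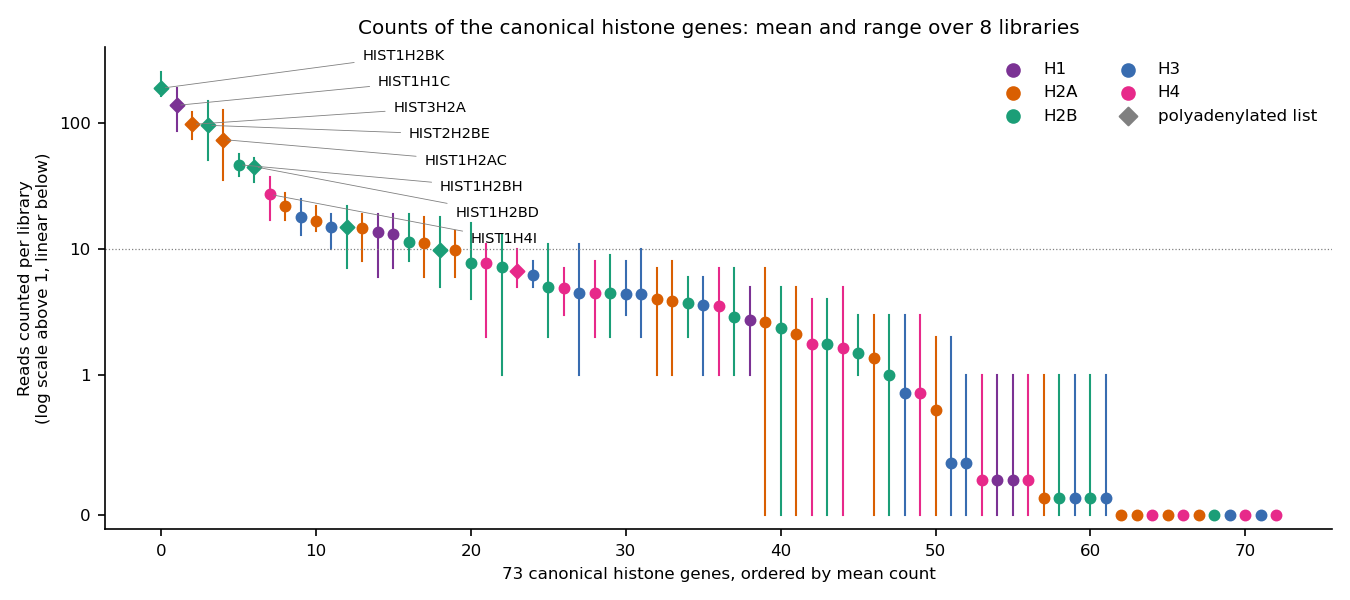
Reads counted for each of the 73 canonical histone genes, ordered by their mean; points are means over 8 libraries, bars run from the lowest to the highest library, colours give the histone class and diamonds the list of 9 genes with described tailed transcripts. The vertical axis is logarithmic above 1 and linear below; HIST1H2BK and HIST1H1C lie highest, 18 genes lie at or above a mean of 10 counts (dotted line), and 11 lie at 0.

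Gene by gene, replicate libraries differed in histone counts by about as much as counting alone gives, while their sums differed by more in some groups and by less in others. For genes with 20 or more counts over both replicates, the chi-square of the replicate difference per histone gene, which counting error alone would put near 1, averaged 0.935 in TCDD D2 (18 genes), 0.742 in DMSO D2 (16 genes), 0.957 in TCDD D1 (21 genes) and 1.29 in DMSO D1 (18 genes). Over all genes with such counts it averaged 4.43 in TCDD D2, 3.21 in DMSO D2, 6.59 in TCDD D1 and 3.86 in DMSO D1. The medians lay closer. In TCDD D2, DMSO D2, TCDD D1 and DMSO D1 they were 0.593, 0.536, 0.714 and 0.547 for histone genes. For all genes they were 1.01, 0.809, 1.40 and 0.991. The reference near 1 holds for the mean and not for the median, which counting error alone puts lower. Where replicates differ beyond counting, the statistic grows with counts, so genes with few counts and all genes are not directly comparable. Summed over all 73 genes, the coefficient of variation between replicates was 7.72% in TCDD D2, 0.948% in DMSO D2, 4.94% in TCDD D1 and 8.73% in DMSO D1, where counting error alone gives 2.88% to 3.51%. For summed H4 it was 17.5% in TCDD D2, 2.13% in DMSO D2, 11.7% in TCDD D1 and 33.4% in DMSO D1, where counting error gives 11.6% to 16.01%.

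Other RNAs known to lack a tail also had few counts. Of 23 such RNAs in the tables (small nuclear RNAs, RNA components of RNases and the like), 10 to 14 had no count in a given library, and all 23 together had 47 to 69 counts per library. The 12 replacement histone variants, whose mRNAs do carry a tail, summed to 1511 to 1648 CPM, which are counts per 1000000 of a library total scaled by its TMM factor. In each library that was 52.2 to 75.0 times the sum of all 73 canonical genes. The RNA selection is not given in the sources used here, and its part in these levels was not tested. Among the variants, H3F3B had a mean of 361 to 402 CPM per group. H3F3A, which encodes the same protein, had at most 1 count in any library. How reads that match several genes were counted is not given, so this count does not show that H3F3A was silent.

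Summed over all 73 genes, histone levels were 22.05 and 24.6 CPM in TCDD D2, 22.2 and 21.9 in DMSO D2, 28.2 and 30.2 in TCDD D1, and 25.2 and 28.5 in DMSO D1. All 4 libraries at D2 lay below all 4 at D1. The ratio of D2 to D1 was −0.32 on the log2 scale with TCDD and −0.28 with DMSO. The ratio of TCDD to DMSO was 0.08 at D2 and 0.12 at D1, with overlapping libraries at both days. These sums carry no test.

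By class, summed levels lay lower at D2 for H1 and H2B and higher for H4. Summed H1 levels were 3.25 and 2.81 CPM in TCDD D2 against 5.22 and 5.86 in TCDD D1, a log2 ratio of −0.87. In the DMSO cells they were 3.30 and 3.58 CPM at D2 against 4.66 and 5.41 at D1, a log2 ratio of −0.55. Summed H2B levels at D2 were 9.87 and 11.2 CPM with TCDD and 9.80 and 9.29 with DMSO; at D1 they were 13.5 and 13.9 with TCDD and 11.1 and 13.01 with DMSO. In both classes the D2 libraries lay below the D1 libraries of the same exposure.

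The summed H4 level was 1.57 and 2.01 CPM in TCDD D2 against 1.10 and 1.29 in TCDD D1, a log2 ratio of 0.58. With DMSO it was 1.75 and 1.80 CPM at D2 against 0.99 and 1.60 at D1, a log2 ratio of 0.45 that becomes 0.84 without DMSO D1 replicate 2 and 0.15 without DMSO D1 replicate 1. H3 sums overlapped between days under both exposures, with log2 ratios of −0.15 with TCDD and −0.00 with DMSO. H2A sums were 6.15 and 7.04 CPM in TCDD D2, 5.60 and 5.96 in DMSO D2, 6.76 and 7.68 in TCDD D1, and 6.74 and 7.14 in DMSO D1, and the days overlapped only with TCDD.

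**Figure D2:**
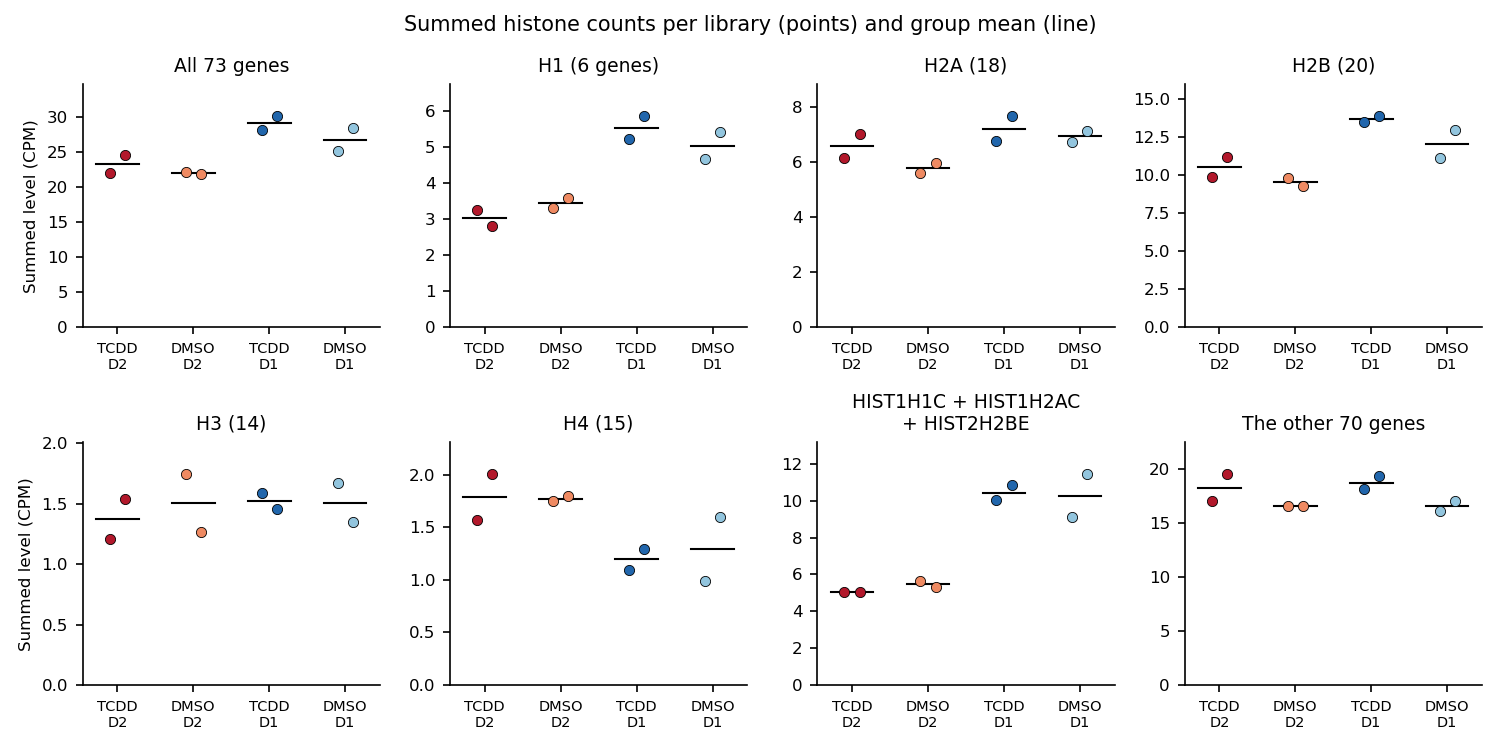
Summed level per library (CPM, linear axis from 0) for all 73 genes, for each histone class, for HIST1H1C, HIST1H2AC and HIST2H2BE together and for the other 70 genes; points are libraries and lines group means of 2 libraries. H1 and H2B lie lower at D2 than at D1 and H4 higher in the means, and the sum of the 3 named genes is lower at D2 while that of the other 70 overlaps between days.

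Per-gene tests used edgeR's quasi-likelihood test over all 17268 genes that passed the filter on low counts, with Benjamini-Hochberg adjustment over all of them. Of the 73 histone genes, 23 passed that filter: 3 H1, 7 H2A, 9 H2B, 2 H3 and 2 H4 genes. The 23 held 90.9% of the histone counts. The H2B genes among them include HIST2H2BC, annotated as a pseudogene. HIST1H2BJ and HIST2H2BC passed the filter only through their TCDD D1 libraries, and HIST1H2BN only through D1 libraries. These genes were tested because they are high there, so their differences from those libraries are no independent support. A call means an adjusted p under 0.05.

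No histone gene was called between TCDD and DMSO. At D1, 0 of 23 passed with edgeR, where 1.14% of all genes tested were called (0.735% higher and 0.405% lower). At D2, 0 of 23 passed, where 2.90% of all genes were called (1.40% higher and 1.50% lower). DESeq2 also called 0 of 23 at each day. Of all 17268 genes, it called 105 higher and 64 lower at D1, and 207 higher and 157 lower at D2. The median log2 fold change of the 23 was 0.09 at D2 and 0.19 at D1, against 0.00 for all genes at both days, with 14 of the 23 above 0 at each day. The D1 values include HIST1H2BJ and HIST2H2BC, which passed the filter only through TCDD D1.

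The most counted genes gave small fold changes between exposures. HIST1H2BK, a core H2B gene, had 4.15 and 4.54 CPM in TCDD D2 against 4.45 and 3.97 in DMSO D2, and 5.88 and 5.53 CPM in TCDD D1 against 4.71 and 5.11 in DMSO D1. Its libraries overlapped at D2 and did not at D1, where the log2 fold change was 0.22 ± 0.12 (SE, adjusted p = 0.545). HIST3H2A, an H2A gene outside the main cluster, had 2.92 and 2.89 CPM in TCDD D2 against 2.29 and 2.77 in DMSO D2, and 2.52 and 2.45 CPM in TCDD D1 against 2.03 and 1.91 in DMSO D1. Its libraries lay higher with TCDD at both days, by 0.19 ± 0.15 at D2 (adjusted p = 0.632) and 0.34 ± 0.16 at D1 (adjusted p = 0.487). HIST1H2BD, another core H2B gene, had 1.14 and 1.46 CPM in TCDD D2 against 0.93 and 1.19 in DMSO D2, and 0.98 and 1.46 CPM in TCDD D1 against 0.89 and 1.17 in DMSO D1, so its groups overlapped at both days.

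The lowest adjusted p-values were those of genes with few reads, named here after their values were seen. HIST1H2BJ had 16 and 18 counts in TCDD D1 against 7 and 5 in DMSO D1, a log2 fold change of 1.48 ± 0.43 with an adjusted p of 0.128. Since the gene passed the filter only through TCDD D1, where it is high, this difference is no independent support. At D2 HIST1H2BJ had 9 and 9 counts with TCDD against 7 and 8 with DMSO. HIST1H2BC had 22 and 17 counts in TCDD D2 against 7 and 12 in DMSO D2, a log2 fold change of 1.01 ± 0.38 with an adjusted p of 0.202. Both are H2B genes of the list with tailed transcripts.

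Between TCDD and DMSO, the libraries did not overlap for 9 of the 23 genes at D2 and for 9 of 23 at D1, where 47.7% of all genes tested at D2 and 37.5% at D1 did not overlap. The summed H2B level was higher with TCDD in non-overlapping libraries at both days, by 0.14 on the log2 scale at D2 and 0.18 at D1, and the D1 value was 0.30 without DMSO D1 replicate 2 and 0.073 without DMSO D1 replicate 1. At D2 the H2A sums, also without overlap, had a log2 ratio of 0.19 and the H1 sums one of −0.18. Standard errors of the per-gene log2 fold changes ran from 0.13 to 0.71 at D2 and from 0.12 to 0.69 at D1, and differences within such errors were not detectable at this depth. The difference between the TCDD effects of both days was called for 0 of 23 genes by edgeR, where 0.822% of all genes were called. DESeq2 also called 0 of the 23, and of all 17268 genes it called 99 higher and 40 lower.

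**Figure D3:**
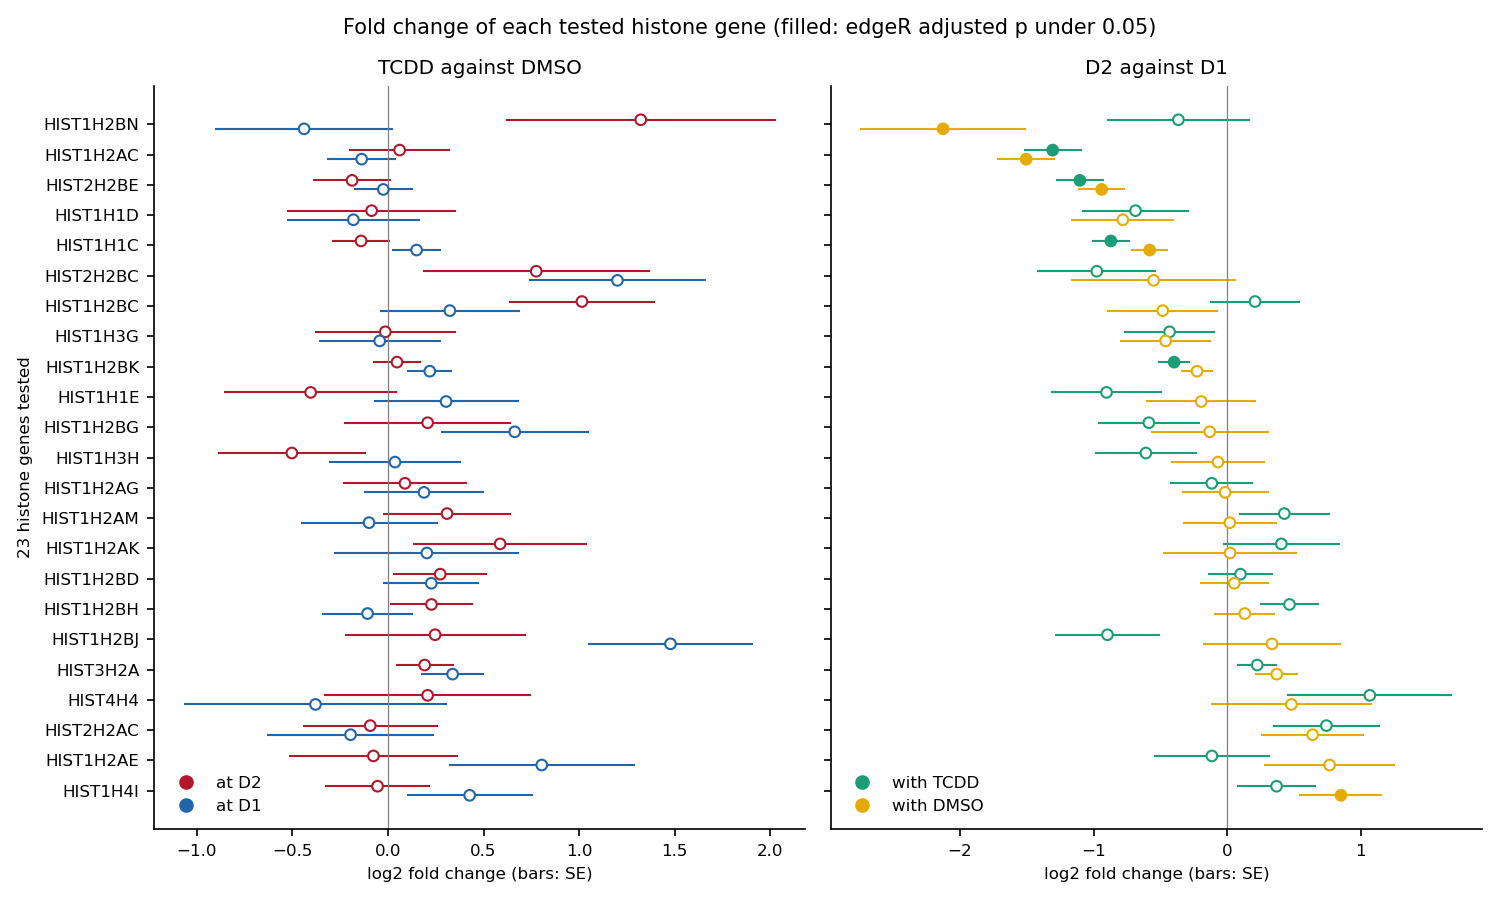
Log2 fold change of each of the 23 tested histone genes with its standard error as a bar, for TCDD against DMSO at D2 and D1 (left) and for D2 against D1 with TCDD and with DMSO (right); filled points have an edgeR adjusted p under 0.05. No point is filled on the left, and on the right HIST1H2AC, HIST2H2BE and HIST1H1C are filled below 0 under both exposures.

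Between the days, a small set of genes fell. With TCDD, 4 of 23 were called lower at D2, where 32.2% of all genes were called lower, and 0 were called higher, where 33.1% were (65.3% in either direction). With DMSO, 4 of 23 were called lower, where 30.7% of all genes were, and 1 was called higher, where 32.5% were (63.2% in either direction). HIST1H2BN, which passed the filter only through D1 libraries, is among the 4 called lower with DMSO. The share of histone genes called lay below that of all genes in both comparisons, and the part of the low histone counts in this was not tested. DESeq2 called 4 of the 23 lower and 0 higher with TCDD, and 3 lower and 0 higher with DMSO. Of all 17268 genes, it called 4688 lower and 5046 higher with TCDD, and 4572 lower and 4758 higher with DMSO. The comparisons use different libraries for each exposure, and the difference between them was called for no gene, as given above. HIST1H2AC, HIST2H2BE and HIST1H1C fell under both exposures, and each kept its call in all of the 16 alternatives with TCDD and all of the 15 with DMSO.

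HIST1H2AC, a core H2A gene, fell the most of these. It had 0.83 and 1.29 CPM in TCDD D2 (35 and 47 counts) against 2.36 and 2.86 in TCDD D1 (101 and 104 counts), a log2 fold change of −1.31 ± 0.22 (adjusted p = 2.4e-05). It had 1.09 and 0.93 CPM in DMSO D2 (40 and 38 counts) against 2.48 and 3.23 in DMSO D1 (98 and 127 counts), a log2 fold change of −1.505 ± 0.22 (adjusted p = 3.97e-06). All 4 D2 libraries lay below all 4 D1 libraries.

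HIST2H2BE, a core H2B gene of the cluster on chromosome 1, had 1.59 and 1.40 CPM in TCDD D2 against 3.27 and 3.19 in TCDD D1, and 1.80 and 1.63 CPM in DMSO D2 against 2.79 and 3.79 in DMSO D1. The log2 fold change was −1.10 ± 0.18 with TCDD (adjusted p = 1.64e-05) and −0.94 ± 0.17 with DMSO (adjusted p = 8.33e-05), again without overlap between days. HIST1H1C, which encodes a somatic linker histone, had 2.63 and 2.37 CPM in TCDD D2 against 4.41 and 4.79 in TCDD D1, and 2.76 and 2.77 CPM in DMSO D2 against 3.83 and 4.45 in DMSO D1. It fell by 0.87 ± 0.14 on the log2 scale with TCDD (adjusted p = 1.47e-05) and by 0.58 ± 0.14 with DMSO (adjusted p = 0.00116).

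Without these 3 genes, the histone sum overlapped between days. Together the 3 had 5.06 and 5.06 CPM in TCDD D2, 5.65 and 5.33 in DMSO D2, 10.03 and 10.8 in TCDD D1, and 9.10 and 11.5 in DMSO D1, with log2 ratios of D2 to D1 of −1.04 with TCDD and −0.91 with DMSO. The other 70 genes summed to 17.0 and 19.5 CPM in TCDD D2, 16.5 and 16.6 in DMSO D2, 18.1 and 19.3 in TCDD D1, and 16.1 and 17.1 in DMSO D1, with log2 ratios of −0.04 with TCDD and −0.00 with DMSO. The 3 genes were singled out after their values were seen, and these sums carry no test.

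The remaining calls each missed the threshold under some alternative. With a library left out, an arm holds 1 library and is assumed to vary like the other groups. HIST1H2BK fell by 0.40 ± 0.12 on the log2 scale with TCDD (adjusted p = 0.00618), which missed the threshold at a similar fold without TCDD D1 replicate 1 (−0.35 ± 0.15, adjusted p = 0.0517) or TCDD D2 replicate 1 (−0.33 ± 0.15, adjusted p = 0.0687); with DMSO its log2 fold change was −0.23 ± 0.12 (adjusted p = 0.115). HIST1H2BN, an H2B gene named here after its values were seen, had 4 and 1 counts in DMSO D2 against 13 and 10 in DMSO D1 and was called lower (log2 fold change −2.13 ± 0.62, adjusted p = 0.0052). It passed the filter only through D1 libraries, where it is high, so the filter favours a call as lower. It had 6 and 7 counts in TCDD D2 against 11 and 6 in TCDD D1. Its DMSO call missed the threshold with DESeq2 (−2.17 ± 0.99, adjusted p = 0.0524) and without DMSO D2 replicate 2 (−1.39 ± 0.70, adjusted p = 0.101).

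HIST1H4I, the most counted H4 gene, has an annotated transcript that runs past its stem-loop and has no poly(A) signal near its end, as given above. HIST1H4I was the only tested histone gene called higher at D2. It had 0.90 and 0.80 CPM in DMSO D2 (33 and 33 counts) against 0.43 and 0.51 in DMSO D1 (17 and 20 counts), a log2 fold change of 0.85 ± 0.31 (adjusted p = 0.0216). With TCDD it had 0.64 and 1.02 CPM at D2 against 0.54 and 0.74 at D1, which overlap (0.37 ± 0.29, adjusted p = 0.276). The DMSO call missed the threshold at a similar fold with DESeq2 (0.85 ± 0.47, adjusted p = 0.118), without DMSO D1 replicate 1 (0.74 ± 0.39, adjusted p = 0.113) and without DMSO D2 replicate 1 (0.77 ± 0.38, adjusted p = 0.0935).

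Some of the most counted genes were not called between days. HIST3H2A had a log2 fold change of 0.22 ± 0.15 with TCDD (adjusted p = 0.201) and of 0.37 ± 0.16 with DMSO (adjusted p = 0.053), with the D2 libraries above the D1 libraries in both. With DMSO D2 represented by replicate 2 alone, the comparison with DMSO passed the threshold (0.50 ± 0.19, adjusted p = 0.0328). HIST1H2BD differed by 0.10 ± 0.24 with TCDD and 0.05 ± 0.26 with DMSO. HIST1H2BH, an H2B gene outside the list with tailed transcripts, had 1.28 and 1.57 CPM in TCDD D2 against 0.89 and 1.18 in TCDD D1 (0.47 ± 0.22, adjusted p = 0.0739) and 1.26 and 1.17 CPM in DMSO D2 against 0.99 and 1.22 in DMSO D1. Its annotated transcript does hold a poly(A) signal.

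The second linker histone gene by level, HIST1H1E, had 13 and 6 counts in TCDD D2 against 17 and 19 in TCDD D1 (−0.90 ± 0.42, adjusted p = 0.0629), and 8 and 17 counts in DMSO D2 against 14 and 15 in DMSO D1. With TCDD it passed the threshold without composition scaling (−1.01, adjusted p = 0.0392), without TCDD D2 replicate 1 (−1.44, adjusted p = 0.0421) and with a crossed replicate block, an alternative added after the data were seen (−0.94, adjusted p = 0.0396). Both tested H3 genes had few reads and none was called. HIST1H3G had 15 and 15 counts in TCDD D2, 17 and 13 in DMSO D2, 25 and 16 in TCDD D1, and 23 and 19 in DMSO D1. HIST1H3H had 10 and 12 counts in TCDD D2, 16 and 15 in DMSO D2, 17 and 17 in TCDD D1, and 19 and 14 in DMSO D1.

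HIST4H4, the single H4 gene named for the fourth locus, had 11 and 10 counts in TCDD D2, 7 and 11 in DMSO D2, 8 and 2 in TCDD D1, and 2 and 11 in DMSO D1, and the replicates at D1 lay far apart. HIST1H4H, an H4 gene with described tailed transcripts, did not pass the filter, with 7 and 6 counts in TCDD D2, 5 and 10 in DMSO D2, 6 and 5 in TCDD D1, and 7 and 7 in DMSO D1. The 50 genes that did not pass held 75 to 108 counts per library in all, and their summed means were 2.54 CPM in TCDD D2, 2.32 in DMSO D2, 2.06 in TCDD D1 and 2.32 in DMSO D1.

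**Figure D4:**
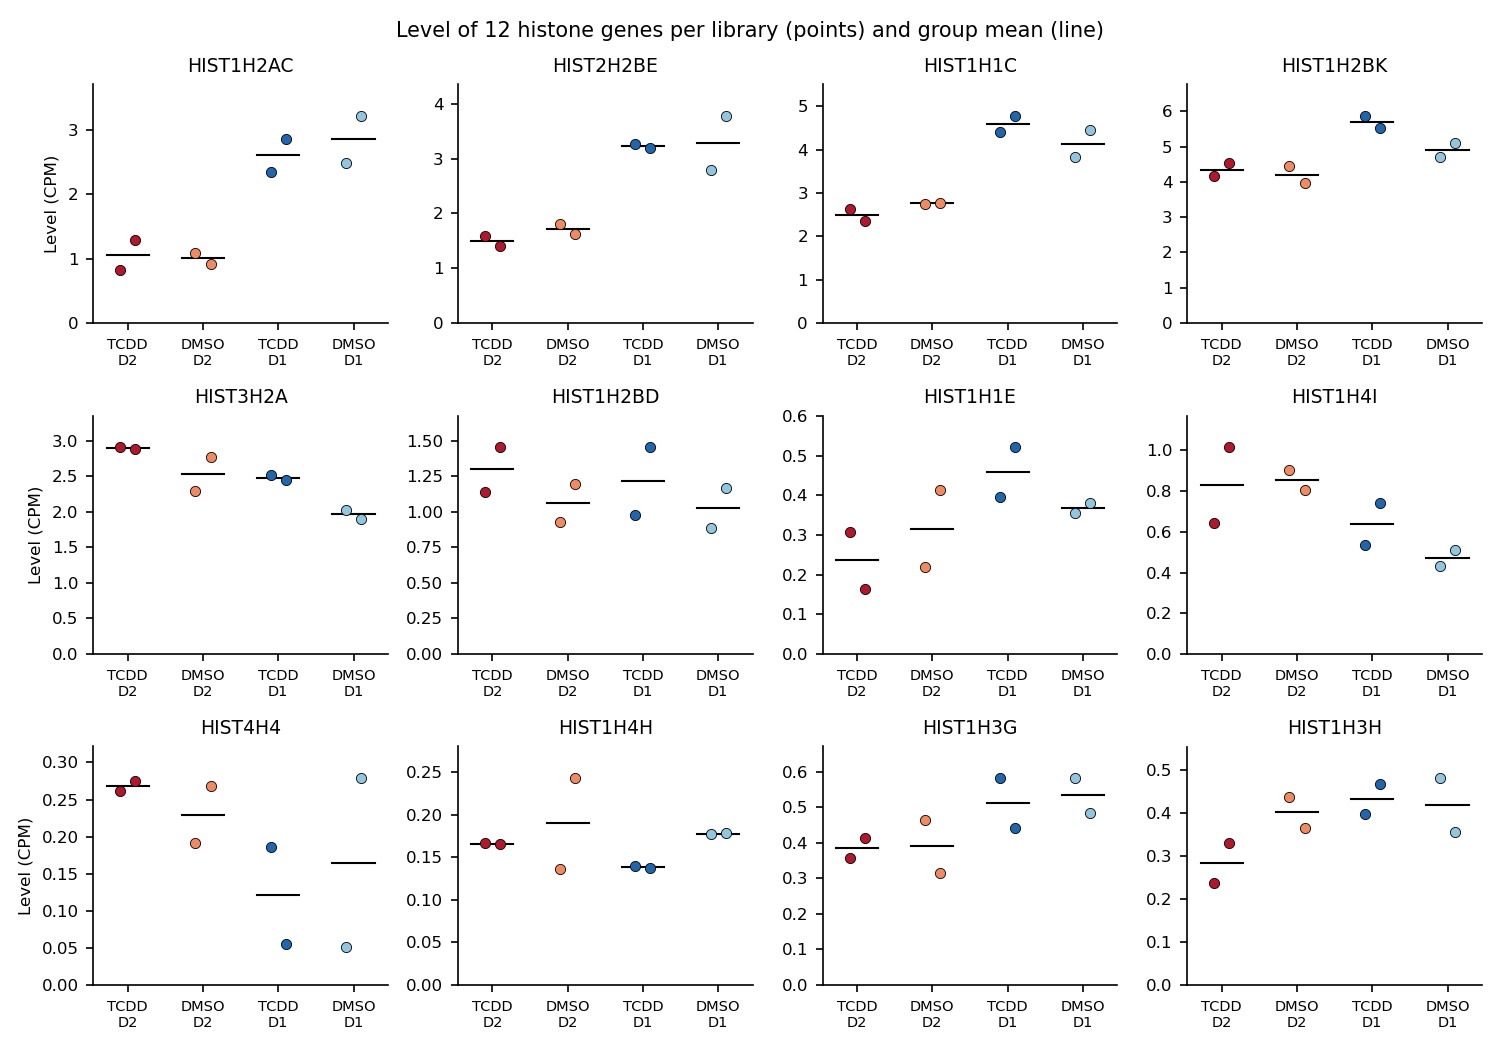
Level per library (CPM, linear axes from 0) of 12 histone genes; points are libraries and lines group means of 2 libraries. HIST1H2AC, HIST2H2BE and HIST1H1C lie lower in all 4 D2 libraries than in all 4 D1 libraries, and the groups of HIST1H2BD overlap.

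Over all 23 tested genes, the median log2 fold change of D2 against D1 was −0.37 with TCDD and −0.07 with DMSO, against −0.00 with TCDD and 0.01 with DMSO for all genes. The libraries did not overlap for 16 of the 23 with TCDD and 13 of the 23 with DMSO, where 81.4% of all genes with TCDD and 82.5% with DMSO did not. Of the list with tailed transcripts, 8 were tested; 4 were called lower with TCDD (32.2% of all genes), 3 were called lower with DMSO (30.7% of all genes), and none was called higher, with median log2 fold changes of −0.63 with TCDD and −0.35 with DMSO. Summed over all 9, the list had 14.2 and 14.8 CPM in TCDD D2, 13.8 and 13.99 in DMSO D2, 20.3 and 21.4 in TCDD D1, and 17.4 and 20.4 in DMSO D1. The other 64 genes had 7.88 and 9.77 CPM in TCDD D2, 8.35 and 7.91 in DMSO D2, 7.84 and 8.81 in TCDD D1, and 7.83 and 8.16 in DMSO D1, and these groups overlap. These sums carry no test, and the list was chosen with earlier results of these data known.

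The cells also changed in other ways between days, and the part of these changes in the histone result was not tested. The 6 markers of pluripotent stem cells summed to 4170 to 4189 CPM in TCDD D2, 3818 to 3885 in DMSO D2, 4441 to 4463 in TCDD D1 and 4478 to 4538 in DMSO D1. The 6 markers of primitive streak and mesoderm summed to 276 to 311 CPM in TCDD D2, 574 to 613 in DMSO D2, 9.77 to 10.3 in TCDD D1 and 8.62 to 9.45 in DMSO D1. A list of 4 fibroblast markers summed to 353 to 355 CPM in TCDD D2, 297 to 314 in DMSO D2, 847 to 929 in TCDD D1 and 833 to 876 in DMSO D1, while its member DCN averaged at most 0.03 CPM in any group. The sums hide members that moved the other way. Under both exposures, means of POU5F1, NANOG and LIN28A were higher at D2, and those of DPPA4 and TDGF1 lower. SOX2 was higher at D2 with TCDD and lower with DMSO. Of the streak list, TBX6 was lower at D2 under both exposures and the other members higher. Of the fibroblast list, COL1A1 and THY1 were lower and COL1A2 higher. THY1 gave the largest part of the D1 sums of this list, with means of 443 CPM in TCDD D1 and 457 in DMSO D1. Whether any fibroblasts were present was not tested. In bulk RNA, fewer cells of a type and less RNA per cell cannot be told apart.

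Genes that act with the canonical histones were read from lists of other genes. Each count of these lists is to be read against all genes, of which 33.1% were called higher and 32.2% lower at D2 with TCDD, and 32.5% higher and 30.7% lower with DMSO. Of 28 S-phase genes, 18 were called higher and 3 lower at D2 with TCDD, and 18 higher and 1 lower with DMSO, with median log2 fold changes of 0.23 with TCDD and 0.20 with DMSO. FEN1, which trims flaps on the lagging strand, had a log2 fold change of 0.77 ± 0.05 with TCDD and 0.71 ± 0.05 with DMSO. POLA1, the catalytic subunit of the polymerase that primes replication, rose by 0.88 ± 0.05 with TCDD and 0.68 ± 0.05 with DMSO. MCM4, a subunit of the replicative helicase, rose by 0.69 ± 0.05 with TCDD and 0.59 ± 0.05 with DMSO. Of 15 mitosis genes, 6 were called higher and 5 lower with TCDD, and 3 higher and 6 lower with DMSO. CENPE, a kinetochore motor, rose by 0.91 ± 0.05 with TCDD and 0.82 ± 0.05 with DMSO, while BUB1B, a spindle checkpoint kinase, fell by 0.42 ± 0.04 with TCDD and by 0.46 ± 0.04 with DMSO, and BUB1, a kinase of the same checkpoint, rose by 0.50 ± 0.05 with TCDD and 0.39 ± 0.05 with DMSO.

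Of 24 genes of histone mRNA transcription and 3′ processing, 15 were called higher and 2 lower at D2 with TCDD, and 12 higher and 4 lower with DMSO. Of all genes, 33.1% were called higher and 32.2% lower with TCDD, and 32.5% higher and 30.7% lower with DMSO. SLBP averaged 102 ± 1.78 CPM in TCDD D2 against 70.8 ± 1.98 in TCDD D1, and 102 ± 0.604 in DMSO D2 against 72.6 ± 1.33 in DMSO D1 (SD, n = 2 libraries each, here and for the other CPM means; edgeR adjusted p = 4e-09 with TCDD and 1.29e-08 with DMSO). NPAT, the coactivator that drives histone genes in S phase, rose by 0.31 ± 0.06 with TCDD (adjusted p = 6.32e-05) and 0.19 ± 0.06 with DMSO (adjusted p = 0.00545). CASP8AP2, which works with NPAT in histone locus bodies, rose by 0.60 ± 0.05 with TCDD and 0.43 ± 0.05 with DMSO, and the cap-binding subunit NCBP1 by 0.66 ± 0.05 and 0.60 ± 0.05.

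Of 17 histone chaperones and importers, 13 were called higher and 4 lower at D2 with TCDD, and 10 higher and 4 lower with DMSO, where 65.3% of all genes were called in either direction with TCDD and 63.2% with DMSO. IPO4, an importin that carries histones, averaged 157 ± 11.5 CPM in TCDD D2 against 134 ± 6.04 in DMSO D2, the only called difference between TCDD and DMSO among all of these lists (log2 fold change 0.23 ± 0.06, edgeR adjusted p = 0.0277). HIRA, which places H3.3 outside replication, rose at D2 by 0.55 ± 0.05 with TCDD and 0.47 ± 0.05 with DMSO, and SUPT16H, a subunit of the FACT complex, by 0.44 ± 0.04 and 0.37 ± 0.04. ATRX, a chromatin remodeler that works with an H3.3 chaperone, fell by 0.35 ± 0.05 with TCDD and by 0.53 ± 0.05 with DMSO.

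Of 11 tested replacement variants, 5 were called higher and 3 lower at D2 with TCDD, and 4 higher and 3 lower with DMSO, where 33.1% of all genes were called higher and 32.2% lower with TCDD, and 32.5% and 30.7% with DMSO. The macroH2A genes H2AFY and H2AFY2 were higher at D2, H2AFY by 0.81 ± 0.05 with TCDD and 0.69 ± 0.05 with DMSO and H2AFY2 by 0.72 ± 0.07 and 0.70 ± 0.07. H2AFJ, an H2A variant, had 5.79 ± 0.604 CPM in TCDD D2 against 9.003 ± 0.462 in TCDD D1 and 5.57 ± 0.0709 in DMSO D2 against 9.99 ± 0.898 in DMSO D1, and was called lower under both exposures. H1FX, a linker histone variant, fell by 0.36 ± 0.05 with TCDD and by 0.29 ± 0.05 with DMSO. H2AFZ, which encodes H2A.Z, had 397 ± 10.04 CPM in TCDD D2 against 365 ± 33.3 in TCDD D1 and was at the threshold (0.12 ± 0.05, adjusted p = 0.0469), and with DMSO its log2 fold change was 0.11 ± 0.05 (adjusted p = 0.0724).

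The promoters of the 3 genes that fell under both exposures, and of HIST1H2BK, are shown because these 4 genes were called lower at D2 against D1 with TCDD. Whether they changed jointly was not tested. Each stretch covers the 150 bases before the start of transcription in RefSeq (GRCh38.p14), in the direction of transcription. They lie at chr6:26124022-26124171 on the plus strand (HIST1H2AC), chr1:149886683-149886832 on the minus strand (HIST2H2BE), chr6:26056471-26056620 on the minus strand (HIST1H1C) and chr6:27146859-27147008 on the minus strand (HIST1H2BK). Capitals mark the CCAAT box and the TATA box (TATAAA). They also mark the octamer ATTTGCAT. Both strands were searched, so a reverse complement is marked as well.
HIST1H2AC: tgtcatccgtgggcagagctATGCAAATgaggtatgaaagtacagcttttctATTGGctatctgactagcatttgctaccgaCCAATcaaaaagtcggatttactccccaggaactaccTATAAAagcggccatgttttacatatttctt
HIST2H2BE: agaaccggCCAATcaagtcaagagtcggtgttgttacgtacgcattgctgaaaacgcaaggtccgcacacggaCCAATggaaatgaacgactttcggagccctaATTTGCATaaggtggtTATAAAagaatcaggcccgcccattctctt
HIST1H1C: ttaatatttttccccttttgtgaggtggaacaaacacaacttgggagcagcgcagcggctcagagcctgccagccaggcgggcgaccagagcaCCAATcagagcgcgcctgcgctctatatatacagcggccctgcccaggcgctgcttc
HIST1H2BK: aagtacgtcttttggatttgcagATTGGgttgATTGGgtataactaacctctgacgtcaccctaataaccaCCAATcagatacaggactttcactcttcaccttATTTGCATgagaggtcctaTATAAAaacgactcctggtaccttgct
HIST1H2AC, HIST2H2BE and HIST1H2BK hold all 3 motifs, and of these letters HIST1H1C holds CCAAT alone. Only exact matches were searched. The HIST1H1C stretch also holds the run tatatata, which is not marked, so a TATA box of other letters is not excluded there.

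These motifs were also frequent in other members, though not in every class. Of 60 histone genes with a promoter in the RefSeq table, 83.3% held CCAAT within 250 bases before the start, against 33.0% of 27305 promoters of the same length. Every H1, H2A, H2B and H3 promoter in the table held it, and 23.1% of H4 promoters did. TATAAA was in 66.7% of the histone promoters, against 11.1% of all. The octamer was in 35.0%, against 1.66% of all, in 69.2% of H2B and 68.8% of H2A promoters, in 1 of 12 H3 promoters and in no H1 or H4 promoter. A match is a description of the letters and not of a bound site.

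Neighbours across a shared promoter region were not called with them. HIST1H2AC starts 219 bases from HIST1H2BC on the other strand in GENCODE v29, and HIST1H2BC had log2 fold changes of D2 against D1 of 0.21 ± 0.34 with TCDD and −0.48 ± 0.42 with DMSO, called in neither. HIST2H2BE starts 323 bases from HIST2H2AC, an H2A gene with log2 fold changes of 0.74 ± 0.40 with TCDD and 0.64 ± 0.38 with DMSO, also called in neither. The difference between the neighbours was not tested, and whether counting used strand is not given in the sources used here.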

How the data were processed

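RNA of 8 MEL1 libraries had been sequenced by the authors. The deposited tables hold whole-number read counts per gene symbol, not normalised, as their values show. The submitters' processing notes name cutadapt 1.9.1, STAR, featureCounts 1.5.1 and the hg19 build. Not given in the sources used here are the annotation, the strand setting, the handling of reads that match several genes and the RNA selection. Coordinates printed are those of GRCh38 annotations, not of the counting.

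Groups came from the labels. All 4 groups entered 1 fit in edgeR 4.0.16 (R 4.3.3): genes filtered by filterByExpr (17268 kept), TMM scaling, robust quasi-likelihood test, two-sided, Benjamini-Hochberg adjustment over all genes. CPM are counts per 1000000 of the TMM-scaled total. Class sums got no test. Robust estimation was adopted after the data were seen, to match earlier processing of these tables. Alternatives were DESeq2 1.42.0, other scaling and filtering, fewer groups, a replicate block, no robust estimation and leaving out each library. The test was checked on simulated counts. Where a spread of sums is given, it is the coefficient of variation between replicates, set beside that of counting error alone. As the limit that a count of 0 allows, 3 counts were taken.

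The members and lists were chosen with earlier results of these data known. Genes with values per library were the 2 most abundant of each class, every called gene of the TCDD contrasts, the largest called day changes among genes averaging 1 CPM or more, and 8 fixed by name; of other lists, up to 3 called genes each plus SLBP, NPAT and H2AFZ.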

Additional observations from a re-analysis of the deposited data

How the results depend on the processing

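Counts of called histone genes for TCDD against DMSO, and for the difference of the TCDD effects, were 0 under every alternative run. For D2 against D1 with DMSO, 0 genes were called higher with DESeq2 in place of 1. With TCDD, 1 was called higher when no filter was used (HIST1H2AJ, with 21 counts in all) in place of 0, 0 to 1 when a library was left out, and 7 were called lower in place of 4 without composition scaling. That setting put the median log2 fold change of all genes at −0.11 with TCDD and −0.08 with DMSO, and cut the share of calls that were higher to 37.4% from 50.7% with TCDD, to 40.5% from 51.4% with DMSO, and to 53.6% from 64.1% for the difference of the TCDD effects. Without a filter, 229 genes of all were called higher and 251 lower for TCDD at D1, in place of 127 and 70, and 428 and 457 in place of 241 and 259 at D2; the cause was not tested.

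Log2 ratios of the class sums moved as follows. Without the list of 9 genes with tailed transcripts, D2 against D1 with TCDD was 0.084 for all genes, 0.31 for H2A and −0.0014 for H2B, and with DMSO it was 0.024 for all, −0.42 for H1, 0.078 for H2A and −0.14 for H2B; TCDD against DMSO at D2 was −0.35 for H1 and 0.33 for H2B. Without the highest gene of each class, D2 against D1 was −0.36 for H2A with TCDD, and −0.39 for all, −0.42 for H1 and −0.62 for H2A with DMSO; TCDD against DMSO was −0.35 for H1 at D2, and −0.071 for H2A and −0.57 for H4 at D1. Without composition scaling, D2 against D1 was −0.43 for all and −0.49 for H2B with TCDD and −0.35 for H2A with DMSO. Leaving out 1 library gave −0.47 to −0.29 for H2B and −0.33 to 0.017 for H3 with TCDD, −0.37 to −0.19 for all and 0.15 to 0.84 for H4 with DMSO, 0.00025 to 0.16 for all and −0.18 to 0.18 for H4 between exposures at D2, and 0.073 to 0.30 for H2B and −0.42 to 0.27 for H4 at D1.

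Replicate numbers run from 1 to 2 in each group and no source says that they pair libraries; deviations of same-numbered libraries correlated at 0.25 between exposures at D1, 0.15 at D2, 0.03 between days with DMSO and −0.21 between days with TCDD. With the replicate block, 4 genes were called lower and 0 higher at D2 with TCDD, 4 lower and 1 higher with DMSO, and 0 between exposures, as without it. A crossed block, added after the data were seen, called 5 lower and 0 higher with TCDD, HIST1H1E being the one gained.

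Of the values of the 11 tested genes among the 12 named by rule, and of HIST1H2BN with DMSO, under the alternatives, 825 kept their side of the threshold, 5 gained a call and 7 lost one; outside these genes, HIST1H2BJ, HIST2H2BC, HIST1H2BH, HIST2H2AC and HIST1H2AJ gained a call under some alternative. Depth was low, as 55 of 73 genes averaged under 10 counts per library.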
